A study of Mus musculus with 4 samples.

Results

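The leukocyte integrins and P-selectin glycoprotein ligand 1 (PSGL-1) were examined in RNA from mouse blood monocytes and neutrophils. The 9 genes were taken by symbol, 9 of the 43346 genes listed in the expression tables: the integrin alpha chains Itgam, Itgal, Itgax and Itga4, the beta chains Itgb2, Itgb2l, Itgb1 and Itgb7, and Selplg, which encodes PSGL-1. No value of these libraries entered that choice of symbols, although earlier results of the same data were known when it was made.

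Blood of adult C57BL6 mice, male by the study's supplement, was the source of the total RNA, sequenced as 2 monocyte and 2 neutrophil libraries. Both populations came from unmodified mice of that strain, with no treatment named, and were first divided by centrifugation on Ficoll. Monocytes were sorted from the mononuclear layer and are labelled Gr-1+ and Mac-1+, whereas the study's supplement lists the gate Ly6g-, CD11b+ for them. Neutrophils were recovered from the pellet once its red cells had been lysed, and no sort is named for them. Mac-1 is the product of Itgam and Itgb2, so a member of the family was itself used to choose the monocytes. The labels do not say whether replicates came from separate groups of mice, and the p-values below measure only the spread between these samples, which may be technical.

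Integrins are membrane receptors built from 1 alpha and 1 beta chain, and a chain that lacks its partner is poorly carried to the cell surface. The chains that share Itgb2 (CD18) are found on leukocytes and let them adhere firmly to vessel walls, while the Itga4 (CD49d) chain with Itgb1 (CD29) or Itgb7 binds the endothelial ligands VCAM-1 and MAdCAM-1. Rolling comes before firm adhesion and is carried by selectins, of which P-selectin binds PSGL-1 on the leukocyte. Humans that lack CD18 have a leukocyte adhesion deficiency in which neutrophils stay in the blood.

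The transcripts with the most extreme differences in either direction were Itgb1 and Itgb2l, and Itgam is the chain that defines the Mac-1 label. For these 3 genes the 250 bases before the transcription start are shown, from RefSeq on GRCm38.p6, to show the stretch in which 2 motifs known from myeloid and widely active promoters were searched. Capitals mark GAGGAA, the core bound by the myeloid factor PU.1, and GGGCGG, the box bound by Sp1, on either strand (TTCCTC and CCGCCC on the strand shown are the reverse complements).
Itgam, chr7:128062390-128062639 (+): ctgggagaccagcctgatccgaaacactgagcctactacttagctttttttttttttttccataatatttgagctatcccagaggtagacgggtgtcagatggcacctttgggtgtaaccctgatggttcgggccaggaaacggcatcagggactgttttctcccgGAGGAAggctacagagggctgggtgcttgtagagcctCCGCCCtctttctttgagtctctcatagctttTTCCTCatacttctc
Itgb1, chr8:128685404-128685653 (+): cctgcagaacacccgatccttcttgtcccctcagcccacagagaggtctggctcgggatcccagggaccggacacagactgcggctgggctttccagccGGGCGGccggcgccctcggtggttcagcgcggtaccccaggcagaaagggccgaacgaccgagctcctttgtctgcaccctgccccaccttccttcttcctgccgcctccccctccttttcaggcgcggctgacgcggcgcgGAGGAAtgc
Itgb2l, chr16:96443615-96443864 (-): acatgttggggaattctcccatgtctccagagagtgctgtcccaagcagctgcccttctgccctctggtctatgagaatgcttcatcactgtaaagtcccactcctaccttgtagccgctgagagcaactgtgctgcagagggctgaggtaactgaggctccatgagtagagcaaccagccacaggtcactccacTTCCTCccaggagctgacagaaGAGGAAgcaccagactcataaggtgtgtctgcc
GAGGAA occurred in 2 places for Itgam, starting 84 and 15 bases before the start, in 2 for Itgb2l, at 55 and 33 bases before it, and in 1 for Itgb1, at 9 bases before it. Windows were matched for 6 of the 9 genes, and 3 of those 6 held GAGGAA, against 7639 of 32851 mouse promoter windows of the same length (23.3%). The GGGCGG box was in 3 of the 6 (Itgam, Itgb1 and Itga4), against 10756 of 32851 windows (32.7%). A match of letters is a description of the window and not a measurement of binding.

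The libraries held 26076261 and 25538433 expected counts for monocytes, against 21634828 and 20549572 for neutrophils. All values called CPM below are expected counts scaled by these totals (counts in each 1000000). Each gene was tested in edgeR among 14309 tested genes, of which 20.8% were higher in monocytes and 21.8% higher in neutrophils at an adjusted p under 0.05. The biological coefficient of variation was 45.6% between the monocyte libraries and 14.7% between the neutrophil libraries. Markers of monocytes set the populations apart, since 8 of 10 were higher in monocytes. The monocyte levels were 1046 and 1130 CPM for Csf1r, 1120 and 1144 for Adgre4, 673 and 640 for Ace, and 666 and 638 for Nr4a1. They were 568 and 514 CPM for Treml4, 424 and 401 for Cx3cr1, 369 and 367 for Ccr2, and 172 and 139 for Cd300e. The mix of monocyte subsets in these libraries was not tested. F13a1 was lower, at 21.9 and 23.1 CPM in monocytes, against 60.5 and 61.0 CPM in neutrophils, and 1 did not pass. All 10 summed to 5081 and 5022 CPM in monocytes, against 480 and 473 CPM in neutrophils. Ly6c2, which encodes an epitope of the Gr-1 antibody, was at 21.1 and 26.2 CPM in monocytes, against 17.0 and 19.7 CPM in neutrophils, and did not pass the test. Ly6g, the other Gr-1 epitope, had no count in either monocyte library, which allows up to 0.115 and 0.117 CPM, against 6.70 and 5.74 CPM in neutrophils. Of 12 neutrophil markers 11 were lower in monocytes, and all 12 summed to 330 and 357 CPM in monocytes, against 7726 and 7902 CPM in neutrophils. Retnlg alone made up 224 and 235 CPM of the monocyte sums, and Ly6g and Camp were at 0 in both monocyte libraries. All 8 natural killer (NK) cell markers were higher in the monocyte libraries, with sums of 2459 and 2459 CPM, against 26.1 and 25.1 CPM in neutrophils. All 8 B cell markers were lower in the monocyte libraries, with sums of 662 and 772 CPM, against 4296 and 4136 CPM in neutrophils. T cell markers summed to 14.5 and 16.2 CPM in monocytes, against 108 and 117 CPM in neutrophils, and 6 of 7 were higher in neutrophils. Basophil markers (5 of 5 tested higher in monocytes) summed to 135 and 130 CPM in monocytes, against 4.99 and 5.81 CPM in neutrophils. Of 3 eosinophil markers tested, Ccr3 was higher in monocytes at 166 and 172 CPM, against 12.2 and 12.99 CPM in neutrophils, and Siglecf and Il5ra did not pass (log2 fold changes -0.06 and -0.66). Red cell markers, of which 4 of 5 were lower in monocytes, summed to 6206 and 6610 CPM in monocytes, against 8084 and 8652 CPM in neutrophils.

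Higher levels in monocytes were found for 7 of the 9 genes (20.8% of all genes tested) and lower levels for 2 (21.8% of all). In monocytes all 7 integrin chains other than Itgb2l were more abundant, led by Itgb1 at 11.9 times its neutrophil level, whereas Itgb2l and Selplg went the other way. The 9 transcripts together took 6268 and 5958 CPM of the monocyte libraries, against 2840 and 2785 CPM of the neutrophil libraries. Their median log2 fold change, monocyte over neutrophil, was 0.88, beside -0.06 over all genes tested. In bulk RNA, a lower share of a cell type and less of a transcript in each cell cannot be told apart, which holds for every value below.

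Itgb2 on chromosome 10 (77530252 to 77565708, plus strand, mm10 as for all genes below) encodes CD18, the beta chain that Itgam, Itgal and Itgax share. It was at 1199 and 1208 CPM in monocytes, against 480 and 501 CPM in neutrophils. The replicates lay close together in both groups and the groups were well apart. Its level was 2.45 times higher in monocytes (log2 fold change 1.29, SE 0.08, n = 2 and 2, edgeR adjusted p = 0.000163). NK cell markers were higher and B cell markers lower in the monocyte libraries, and the part of these cells in this difference was not tested. The part of the Mac-1 sort of the monocytes was not tested either.

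Itgam, on chromosome 7 (128062640 to 128118491, plus strand), encodes CD11b, the alpha chain of Mac-1 and a receptor for complement fragment iC3b and fibrinogen. It stood at 914 and 844 CPM in monocytes, against 612 and 572 CPM in neutrophils. Monocytes were higher in both libraries, by the smallest factor of the 9 genes. The log2 fold change was 0.57 (SE 0.08, edgeR adjusted p = 0.00345), or 1.48-fold. The effective length the authors assigned to Itgam was 3946 and 3968 bases in monocytes, against 3308 and 3422 bases in neutrophils. On the length-corrected scale of TPM, which divides counts by effective length and scales the sum of all genes alike, the gene had 53.9 and 45.0 in monocytes, against 41.5 and 35.3 in neutrophils, and with those lengths as an offset in edgeR its log2 fold change was 0.31 (adjusted p = 0.0539), which missed the threshold. Gene models newer than the files place Gm49368 on the same strand across 3450 of the 5024 exon bases of Itgam. That model has no entry in the files.

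Itgal lies on the same chromosome (127296260 to 127335138, plus strand) and encodes CD11a, which with CD18 forms LFA-1, the receptor for ICAM-1. Its level was 646 and 440 CPM in monocytes, against 232 and 232 CPM in neutrophils. The monocyte replicates were a factor of 1.47 apart, the widest gap between replicates of a well-detected member, and the lower one still exceeded the neutrophil libraries by 1.89 times. The log2 fold change was 1.22 (SE 0.18, edgeR adjusted p = 0.00395). Without monocyte replicate 1 it was 0.91, and without monocyte replicate 2 it was 1.45.

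Itgax, also on chromosome 7 (128129547 to 128150657, plus strand), encodes CD11c, a chain long used to mark dendritic cells and also carried by some blood monocytes. It was at 256 and 257 CPM in monocytes, against 53.5 and 50.3 CPM in neutrophils. Its replicates were nearly equal in monocytes, and the difference of 2.30 on the log2 scale (SE 0.09, edgeR adjusted p = 4.34e-05), or 4.94-fold, was the largest among the CD18 partners. Dendritic cell markers were low in both groups, with sums of 14.5 and 10.6 CPM in monocytes and 5.59 and 7.45 CPM in neutrophils. Of 4 tested, Zbtb46 was higher in monocytes and 3 did not pass. Zbtb46 was at 4.49 and 3.13 CPM in monocytes, against 0.74 and 0.54 CPM in neutrophils (log2 fold change 2.57, edgeR adjusted p = 0.0247). Xcr1 was not tested and was under 0.5 CPM in every library. The part of dendritic cell transcripts in the Itgax difference was not tested. Mouse NK cells also carry CD11a, CD11b and CD11c, and the part of the NK transcripts given above in these differences was not tested.

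**Figure D1:**
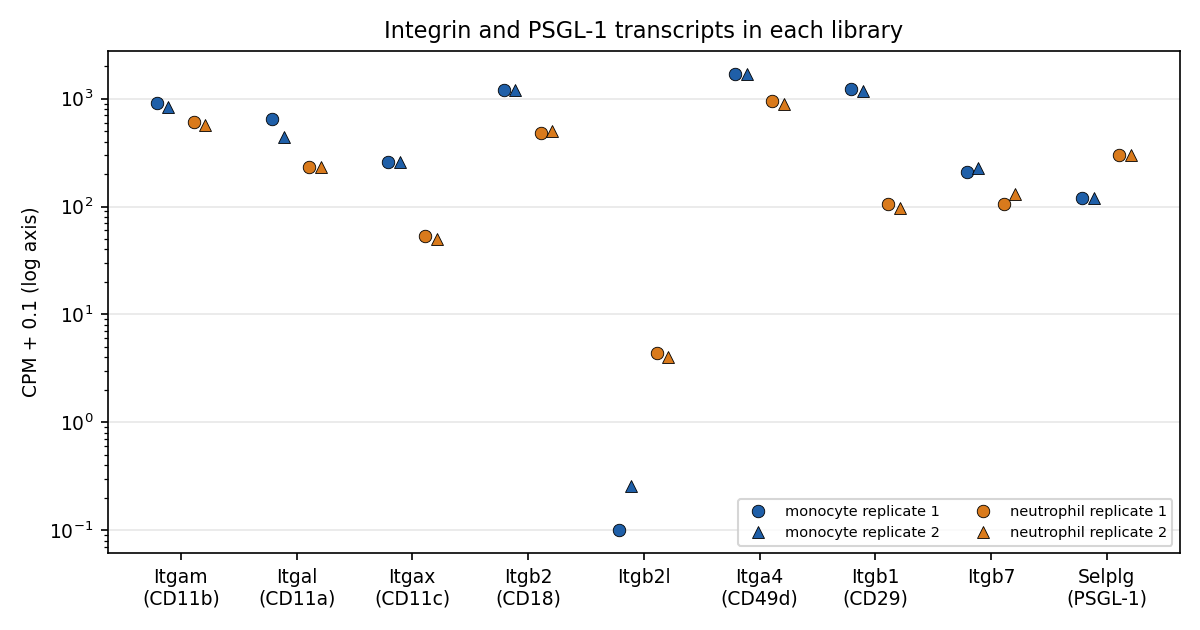
CPM plus 0.1 (log axis) of each of the 9 genes in the 4 libraries, with monocytes in blue left of neutrophils in orange and circles and triangles for replicates 1 and 2. In 7 genes both blue points lie above both orange points, and in Itgb2l and Selplg both lie below, the widest gap being that of Itgb2l. The share of all tested genes that separate in this way was not computed, so the separation is only described.

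The balance among the CD18 partners was compared on the TPM scale, which corrects for length. Itgam made up 52.6% and 56.6% of the TPM of the 3 alpha chains in monocytes, against 73.1% and 71.5% in neutrophils. Itgal made up 32.4% and 25.8% in monocytes, against 21.4% and 23.0% in neutrophils. For Itgax the shares were 15.0% and 17.6% in monocytes, against 5.45% and 5.54% in neutrophils. Thus Itgam was the main partner transcript in all 4 libraries, its share was smaller in monocytes, and the share of Itgax was larger in monocytes, without overlap in any of the 3. These shares were described without a test. The remaining CD18 partner, Itgad, was at 1.59 and 1.41 CPM in monocytes, against 0.19 and 1.28 CPM in neutrophils, did not pass the test (edgeR adjusted p = 0.5) and was not part of these sums; it was named after its values were seen.

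**Figure D2:**
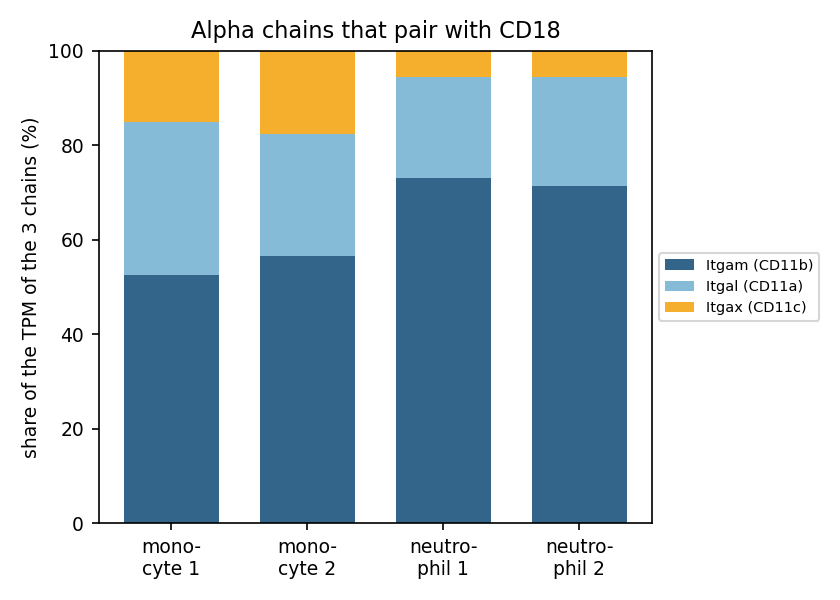
Share of Itgam, Itgal and Itgax in the summed TPM of the 3 alpha chains (y axis, percent), 1 bar for each library, monocytes left. Itgam takes 52.6% and 56.6% of the monocyte bars and 73.1% and 71.5% of the neutrophil bars, and the top segment, Itgax, is 15.0% and 17.6% against 5.45% and 5.54%.

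Itgb2l, on chromosome 16 (96422288 to 96443619, minus strand), encodes a beta chain closely related to CD18 and is known in mice as a neutrophil transcript. It had 0 and 4 counts in monocytes, against 92 and 81 counts in neutrophils. That is 0 and 0.157 CPM in monocytes, against 4.25 and 3.94 CPM in neutrophils. Summed over libraries and scaled to depth, the level in neutrophils was 52.9 times that in monocytes, with an exact counting interval of 20.3 to 196 (95%). The interval pools the libraries of each group, so it covers counting error only and leaves out the spread between libraries. PCR copies of a fragment cannot be told from separate molecules, so it may be too narrow even for counting error. The fitted log2 fold change was -5.62 (SE 1.24, edgeR adjusted p = 0.0164). With so few monocyte counts this estimate moved widely, to -4.68 without monocyte replicate 1 and to -9.55 without monocyte replicate 2, and the call was lost without neutrophil replicate 1 (-5.59, adjusted p = 0.0731). With limma on log2(TPM + 0.1) it was -2.45 and on log2(TPM + 1) it was -0.57, where the added constant exceeds the level of the gene. No reads were split with a copy of the gene to a degree that RSEM reported: the posterior coefficient of variation of its read assignment was 0 in the libraries that held counts, and reached at most 0.12% among all 9 genes (in Itgax).

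Itga4 on chromosome 2 (79255426 to 79333123, plus strand) encodes CD49d, the alpha chain of VLA-4 and of the gut-homing receptor. It was at 1704 and 1698 CPM in monocytes, against 945 and 897 CPM in neutrophils, the highest CPM of the 9 genes in every library and from the longest effective length of the 9. The difference was 0.88 on the log2 scale (SE 0.07, edgeR adjusted p = 0.000468), or 1.85-fold. Itga4 overlaps Cerkl on the opposite strand over 1124 of its 13978 exon bases. Cerkl had 569 and 324 counts in monocytes, against 211 and 220 in neutrophils, while Itga4 had 44426 and 43357 counts in monocytes, against 20438 and 18426 in neutrophils.

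Itgb1 on chromosome 8 (128685654 to 128733200, plus strand) encodes CD29, the beta chain of VLA-4 and of most receptors for collagen, fibronectin and laminin. It had 1222 and 1163 CPM in monocytes, against 105 and 95.8 CPM in neutrophils. Even the lower monocyte library was 11.1 times the higher neutrophil library. Its log2 fold change was 3.57 (SE 0.09, edgeR adjusted p = 2.17e-05), the largest in favour of monocytes among the 9, and between 3.49 and 3.69 in 15 alternative settings. NK cells carry CD29 as well, and the part of NK transcripts in this difference was not tested.

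Itgb7 on chromosome 15 (102215995 to 102231944, minus strand) encodes the beta chain of the gut-homing receptor. It was at 207 and 228 CPM in monocytes, against 106 and 131 CPM in neutrophils. Its difference of 0.87 (SE 0.13, edgeR adjusted p = 0.00429) was much smaller than that of Itgb1, although both chains pair with Itga4. Itga4 and Itgb7 are also carried by lymphocytes and basophils. NK and basophil markers were higher in the monocyte libraries, as these genes were, and B and T cell markers were lower there, and the part of these cells in both differences was not tested.

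Selplg on chromosome 5 (113818536 to 113832644, minus strand) encodes PSGL-1, the main leukocyte ligand of P-selectin. It stood at 120 and 120 CPM in monocytes, against 302 and 302 CPM in neutrophils. Replicates were nearly equal in either group, and the groups did not overlap. The transcript was 2.52 times lower in monocytes (log2 fold change -1.33, SE 0.08, edgeR adjusted p = 0.000155). B and T cells carry PSGL-1 too, and the part of their transcripts in this difference was not tested.

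**Figure D3:**
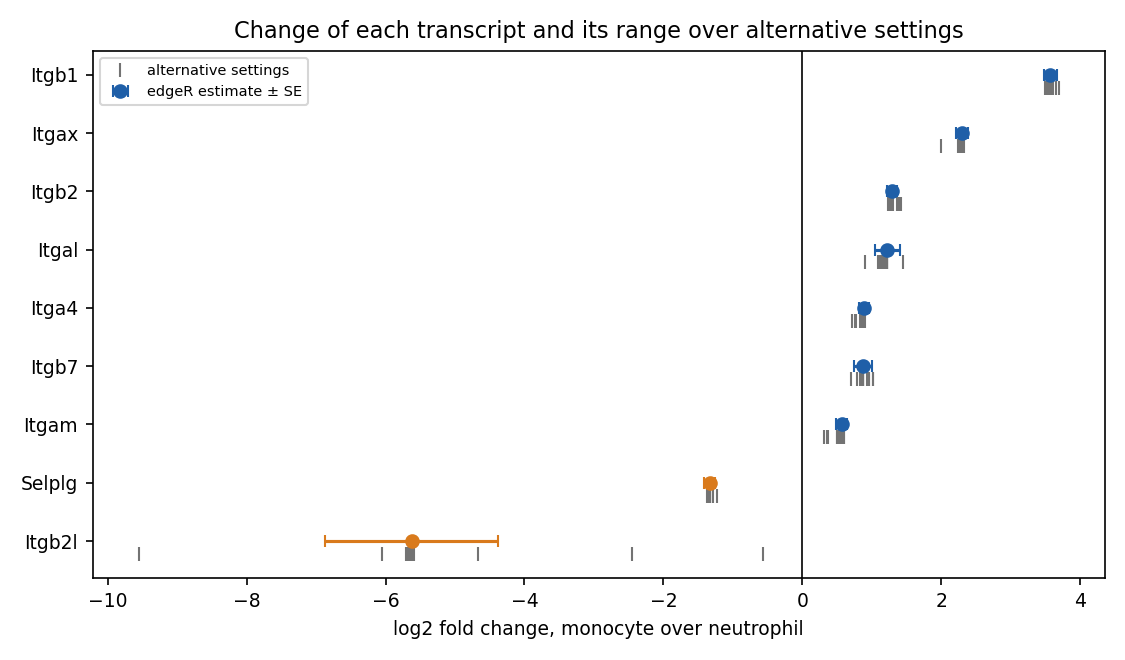
Log2 fold change, monocyte over neutrophil (x axis), of the 9 genes as the edgeR estimate with its SE (points, blue where higher in monocytes and orange where higher in neutrophils), with grey ticks for up to 15 alternative settings. Itgb1 lies at 3.57 with ticks between 3.49 and 3.69, whereas the ticks of Itgb2l spread from -9.55 to -0.57.

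Ranked by TPM, the order in monocytes was Itgb2 (105 ± 10.3, SD, n = 2), Itgb1 (79.0 ± 2.92), Itga4 (52.7 ± 4.76), Itgam (49.5 ± 6.30), Itgal (26.9 ± 8.95), Itgb7 (21.7 ± 0.57), Itgax (14.7 ± 1.01), Selplg (10.96 ± 0.757) and Itgb2l (0.005 ± 0.0071). The replicates of Itga4 and Itgam overlapped there, as did those of Itgal and Itgb7. Neutrophils had Itgb2 (39.1 ± 0.212) and Itgam (38.4 ± 4.33), which overlapped, then Itga4 (30.9 ± 2.70), Selplg (26.9 ± 1.17), Itgal (11.7 ± 0.544), Itgb7 (10.7 ± 1.43), Itgb1 (6.03 ± 0.651), Itgax (2.92 ± 0.247) and Itgb2l (0.495 ± 0.219). Itgal and Itgb7 overlapped in neutrophils too. Itgb1 was therefore the second of the 9 transcripts in monocytes and the seventh in neutrophils, and Selplg was the eighth in monocytes and the fourth in neutrophils.

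Ratios between chains were computed after the levels had been seen and are given without a test. The summed TPM of Itgam, Itgal and Itgax was 0.913 and 0.814 times that of Itgb2 in monocytes, against 1.44 and 1.27 times in neutrophils. Itga4 was 0.544 and 0.503 times the sum of Itgb1 and Itgb7 in monocytes, against 2.03 and 1.68 times in neutrophils. In both families, then, the shared or partner beta chains exceeded the alpha chains in monocyte libraries and fell short of them in neutrophil libraries. Among the partners of Itga4, Itgb1 was 3.66 and 3.61 times Itgb7 in monocytes, against 0.669 and 0.475 times in neutrophils. Itgb7 was thus the more abundant partner transcript in the neutrophil libraries. B and T cell markers were higher in those libraries, and the part of these cells in that order was not tested. Itgb2 was 1.39 and 1.27 times Itgb1 in monocytes, against 6.05 and 6.998 times in neutrophils. Other alpha chains that also pair with Itgb1 were not in these sums.

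**Figure D4:**
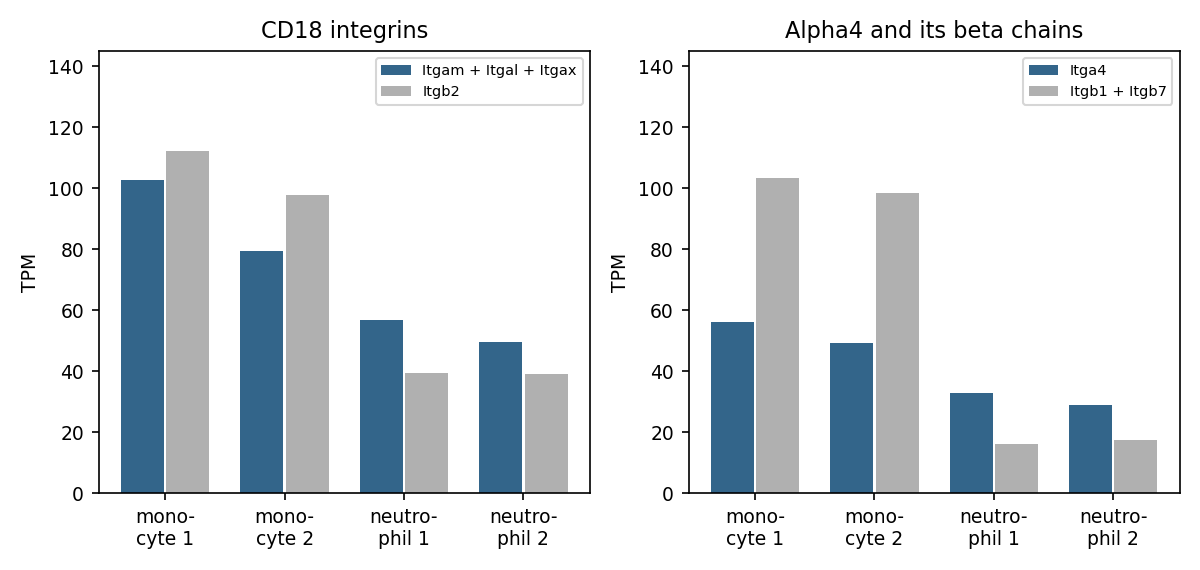
TPM (y axis) of alpha chains (blue) beside beta chains (grey) in each library, monocytes left: the CD18 family in one panel, and Itga4 with Itgb1 plus Itgb7 in the other. Grey bars are taller in all monocyte libraries and blue bars in all neutrophil libraries, with Itga4 over its beta chains at 0.544 and 0.503 in monocytes and 2.03 and 1.68 in neutrophils.

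Genes with a pattern closest to Itgb1 over the 4 libraries, by Euclidean distance of centred log2 CPM, were Asph (distance 0.0805, log2 fold change 3.59), Mcub (0.151, 3.48) and P2ry14 (0.155, 3.67). Closest to Itgb2l were Olfml3 (distance 0.212, log2 fold change -4.82), Chchd10 (0.224, -4.73) and Krt86 (0.318, -6.13). These distances rest on only 4 libraries in 2 groups.

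The rest of the pathway was divided by role into lists of 92 other genes, of which 83 were tested. In monocytes 30 were higher and 23 were lower, and 30 did not pass, where 20.8% of all genes tested were higher and 21.8% were lower. Their median log2 fold change was 0.02, beside -0.06 over all genes tested.

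Among 19 other integrin chains 14 were tested. In monocytes 3 were higher (20.8% of all genes tested), 2 were lower (21.8% of all) and 9 did not pass. Itgav, the alpha chain of vitronectin receptors, was at 277 and 271 CPM in monocytes, against 71.6 and 71.2 CPM in neutrophils (log2 fold change 1.94, edgeR adjusted p = 5.72e-05). Itgb5, which pairs with Itgav, was at 82.6 and 82.0 CPM in monocytes, against 8.97 and 8.84 CPM in neutrophils (3.20). Itga2, known as CD49b and a surface marker of mouse NK cells, had 63.0 and 46.2 CPM in monocytes, against 7.67 and 5.11 CPM in neutrophils (3.09), moving with the NK markers. The part of the NK transcripts in it was not tested. Itgae (CD103) and Itga6, a laminin receptor chain, were higher in neutrophils, with log2 fold changes of -1.98 and -1.07. All 8 B cell markers and 6 of 7 T cell markers were higher there too, and the part of these cells was not tested. Itgb3, the beta chain of the platelet fibrinogen receptor, had 61.4 and 43.1 CPM in monocytes, against 63.6 and 60.4 CPM in neutrophils, and did not pass (-0.25, adjusted p = 0.331).

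Of 2 selectins listed, 1 was lower in monocytes (21.8% of all genes tested) and 1 did not pass. Selp, the P-selectin of platelets and endothelium, was at 1.69 and 1.57 CPM in monocytes, against 4.58 and 5.06 CPM in neutrophils (log2 fold change -1.57, edgeR adjusted p = 0.0477), a call that was lost in 5 of the alternative settings, among them without neutrophil replicate 1 (-1.66, adjusted p = 0.303) and without neutrophil replicate 2 (-1.51, adjusted p = 0.38). Platelet markers summed to 12.0 and 16.2 CPM in monocytes, against 53.6 and 54.4 CPM in neutrophils, with 3 of 6 higher in neutrophils and Gp9 at 0 in both monocyte libraries, and their part in Selp was not tested. Sele, the endothelial E-selectin, was near or under 1 CPM in all 4 libraries and did not pass.

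Genes for the glycans and the tyrosine sulfation that let PSGL-1 bind selectins numbered 12 in the list, and all were tested. Of these, 4 were higher in monocytes (20.8% of all genes tested), 2 were lower (21.8% of all) and 6 did not pass. Gcnt1, the enzyme that starts the core 2 branch, was at 71.7 and 68.4 CPM in monocytes, against 175 and 154 CPM in neutrophils (log2 fold change -1.23, edgeR adjusted p = 0.000474), the same direction as Selplg. St3gal6, a sialyltransferase, was likewise lower in monocytes (-1.73), while St3gal4, a further sialyltransferase, was higher (0.90). Fut4, a fucosyltransferase of the sialyl Lewis x structure, was higher in monocytes at 1.15, and so was Tpst2, a sulfotransferase that modifies tyrosines, at 1.002. The call of Fut4 was lost in 4 of the alternative settings, among them without neutrophil replicate 2 (0.90, edgeR adjusted p = 0.059), and that of Tpst2 in 5, among them without neutrophil replicate 1 (0.78, edgeR adjusted p = 0.064).

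Other glycoproteins that bind selectins were divided, with 1 higher in monocytes (20.8% of all genes tested) and 3 lower (21.8% of all). Spn, which encodes CD43, had 1969 and 2024 CPM in monocytes, against 95.4 and 90.7 CPM in neutrophils, 21.4 times higher in monocytes (log2 fold change 4.42, SE 0.08, edgeR adjusted p = 2.17e-05). CD43 is also abundant on NK cells and the part of their transcripts was not tested. Cd24a was at 220 and 229 CPM in monocytes, against 450 and 425 CPM in neutrophils (-0.96), and the B cell markers were lower in monocytes as well. B cells carry CD24, and their part in this difference was not tested. Cd44 (-0.29, edgeR adjusted p = 0.0456) and Glg1 (-0.38, adjusted p = 0.0215) differed least. The call of Cd44 was lost in 7 of the alternative settings and that of Glg1 in 6. Both were lost without neutrophil replicate 1 (Cd44 -0.31, Glg1 -0.34) and without neutrophil replicate 2 (Cd44 -0.32, Glg1 -0.45).

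Integrins are switched on from inside the cell by talin and the small GTPase Rap1. Of 14 such genes 7 were higher in monocytes (20.8% of all genes tested), 4 were lower (21.8% of all) and 3 did not pass. Rap1a was at 669 and 604 CPM in monocytes, against 117 and 118 CPM in neutrophils (log2 fold change 2.43, edgeR adjusted p = 4.07e-05). Rap1b had 1342 and 1195 CPM in monocytes, against 294 and 277 CPM in neutrophils (2.15). Tln1, talin itself, was 1.78 times higher in monocytes (0.84), while Crkl, an adaptor upstream of Rap1, and Pip5k1c, a lipid kinase that binds talin, were lower (-1.281 and -0.997).

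Among 7 genes that restrain integrins, 3 were higher in monocytes (20.8% of all genes tested), 1 was lower (21.8% of all) and 3 did not pass. Flna, filamin A, which competes with talin for the beta tail, was at 3254 and 3239 CPM in monocytes, against 1278 and 1306 CPM in neutrophils (log2 fold change 1.33, edgeR adjusted p = 0.000124). Cytip and Dok1 were also higher in monocytes (0.81 and 1.15). Sipa1, which inactivates Rap1, was lower in monocytes at 79.2 and 79.6 CPM, against 201 and 214 CPM in neutrophils (-1.39).

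Signals that bound integrins send into the cell were represented by 19 genes. In monocytes 7 were higher (20.8% of all genes tested), 6 were lower (21.8% of all) and 6 did not pass. Syk, the kinase that reads ITAM adaptors, was at 536 and 527 CPM in monocytes, against 1263 and 1255 CPM in neutrophils (log2 fold change -1.24, edgeR adjusted p = 0.000156). B cell markers were lower in monocytes as well, and their part in the Syk difference was not tested. Fcer1g, an ITAM adaptor, moved the opposite way, at 196 and 239 CPM in monocytes, against 80.7 and 85.1 CPM in neutrophils (1.39), and it is also expressed by basophils and NK cells, whose part was not tested. The adhesion proteins Zyx and Pxn were lower in monocytes (-1.45 and -1.37) and Lims1 was higher (1.30). The Src family kinase Lyn, at 601 and 658 CPM in monocytes, against 558 and 516 CPM in neutrophils, did not pass (0.23, adjusted p = 0.0876).

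**Figure D5:**
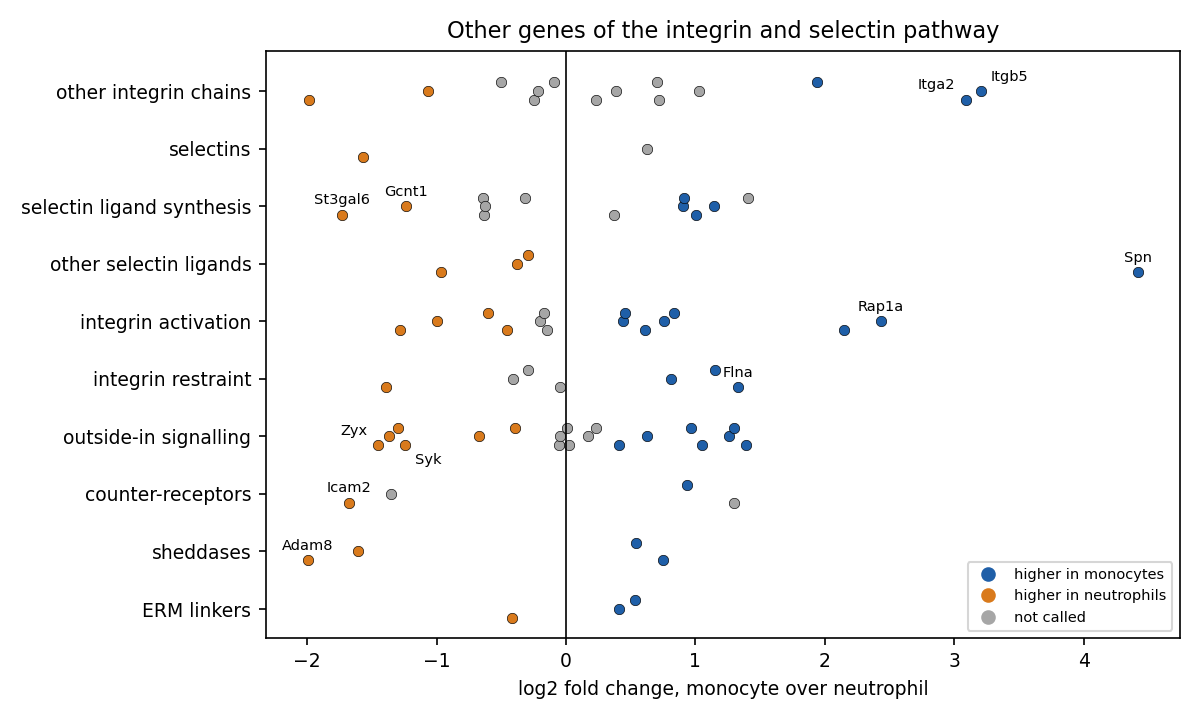
Log2 fold change, monocyte over neutrophil (x axis), of the 83 tested pathway genes by role (rows), coloured blue where higher in monocytes, orange where higher in neutrophils and grey where the edgeR test was not passed. Most rows hold points on both sides of 0, and the far right point is Spn at 4.42, against Adam8 at -1.997 on the far left.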

How the data were processed

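Per the labels, RNA was depleted of ribosomal RNA and made into stranded random-hexamer libraries with PCR. The study's methods state that the authors aligned reads to mm10 with STAR and estimated gene levels with RSEM on GENCODE genes, and the deposited tables give expected counts, TPM, the effective length and, as a score, the posterior SD of each expected count. The sources used here do not give a strand setting, so reads from a gene and an antisense partner may not be told apart. Each table had 69690 entries, of which 43346 had a gene identifier, and 42462 of those (98.0%) matched a symbol in GENCODE M21, which also gave coordinates. Entries that were not genes held at most 0.000594% of the counts and were left out.

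Expected counts were rounded to whole numbers and tested with edgeR 4.0.16 in R 4.3.3 (quasi-likelihood F test, TMM factors 0.9936 to 1.006, filterByExpr by group, Benjamini-Hochberg adjusted p under 0.05 over all 14309 genes tested). Each SE was the log2 fold change without its sign, divided by the square root of the F value of its test. It rests on a spread estimated over both groups and not on the replicates of either group alone. Groups came from the labels. TPM values were compared between genes because they correct for length. The procedure was also run on simulated counts with a single spread for all genes and both groups. That check cannot speak for groups of unequal spread, such as these. Alternatives were RLE, upper-quartile and library size scaling, no filter, a minimum of 10 CPM in 2 libraries, DESeq2 1.42.0, limma 3.58.1 on log2-transformed TPM with 1 or 0.1 added, effective length as an offset, a test against a 2-fold change, leaving out mitochondrial and the 10 most abundant genes, and leaving out each library, where the lone library of a group was assumed to vary like those of the other group. Depth was between 20549572 and 26076261 counts a library, so that a count of 0 allows up to 0.146 CPM in the shallowest one, for counting error only.

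The members, the pathway lists and the markers were chosen with earlier results of these data known, and 1 gene of the pathway is not reported here. Named were all 9 members, all genes of lists of at most 4 genes, and in each other list the 2 tested genes with the highest mean CPM and, for either direction, the 2 called genes that differed most at a mean of at least 5 CPM in the higher group. The 3 most alike genes were taken for the called member with the largest fold change in each direction.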

Additional observations from a re-analysis of the deposited data

How the results depend on the processing

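For the 9 members, 126 of 134 values kept direction and call over the alternatives, 8 lost the call and 0 changed direction. Itgam missed the threshold with limma on log2(TPM + 1) (0.36, adjusted p = 0.151), on log2(TPM + 0.1) (0.36, adjusted p = 0.148), with effective length as an offset (0.31) and when tested against 2-fold, where Itgal, Itga4 and Itgb7 did too. Against 2-fold, 934 of the 14309 genes tested were higher and 1055 were lower in monocytes. There 3 members were higher in monocytes and, of the pathway genes, 9 were higher and 8 were lower. At a minimum of 10 CPM, where 8470 genes were tested, 1 member was higher in neutrophils, because Itgb2l was then not tested. Leaving out 1 library at a time gave 1984 to 3987 genes higher in monocytes and from 1810 to 4675 genes that were higher in neutrophils (1810 without neutrophil replicate 1, 1913 without neutrophil replicate 2), with 7 members higher in monocytes and 1 to 2 higher in neutrophils, the 1 being without neutrophil replicate 1. Pathway genes then numbered 22 to 34 higher in monocytes and 17 to 30 higher in neutrophils. Those fits without 1 library tested 15179 to 15406 genes. From counts not divided by length, the neutrophil shares of Itgam, Itgal and Itgax became 67.5%, 26.5% and 5.92%. Of 613 values for 41 other named genes, 548 kept their call, 61 lost it, 3 gained it and 1 changed direction: Lyn, at -0.0078 with the effective length offset. The median over all genes was -0.32 without a filter (21031 genes), against -0.06 in the reported fit, and -0.11 with upper-quartile factors. Causes were not tested. No paired analysis was possible because the labels give no replicate number that a monocyte and a neutrophil library share; the numbers used here follow the order of deposit and only name a library.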

Other observations

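Genes around the adhesion step itself, with roles outside the receptors and their signals, were also measured. The sheddases that release surface proteins of leukocytes were divided. Adam17, which cleaves tumour necrosis factor from the membrane, was at 178 and 194 CPM in monocytes, against 108 and 113 CPM in neutrophils (log2 fold change 0.75, edgeR adjusted p = 0.00199), and Adam10, a related protease, was higher in monocytes too (0.54, adjusted p = 0.0125). The Adam10 call was lost in 6 of the alternative settings, among them without neutrophil replicate 1 (0.50, adjusted p = 0.0925) and without neutrophil replicate 2 (0.54, adjusted p = 0.0624). Rhbdf2, which carries ADAM17 to the cell surface, was lower in monocytes at 24.5 and 19.2 CPM, against 62.6 and 70.2 CPM in neutrophils (-1.60, adjusted p = 0.00108). Adam8, a protease of leukocyte granules, was lower as well, at 48.9 and 67.8 CPM in monocytes, against 230 and 235 CPM in neutrophils (-1.997, adjusted p = 0.000556). So the transcripts of ADAM17 and its carrier went in opposite directions.

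The proteins that tie PSGL-1 and CD44 to actin, ezrin, radixin and moesin, differed little. Msn had 1082 and 869 CPM in monocytes, against 767 and 702 CPM in neutrophils (log2 fold change 0.41, edgeR adjusted p = 0.0404). Rdx was higher in monocytes (0.54, adjusted p = 0.00719) and Ezr was lower at 340 and 411 CPM in monocytes, against 503 and 501 CPM in neutrophils (-0.42, adjusted p = 0.0291). These calls were lost in 6 of the alternative settings for Msn, 2 for Rdx and 5 for Ezr. Without neutrophil replicate 2 the log2 fold changes were 0.33 for Msn (adjusted p = 0.131), 0.47 for Rdx (0.0589) and -0.44 for Ezr (0.0505), and Ezr was also lost without neutrophil replicate 1 (-0.44, adjusted p = 0.056). Of 8 genes for counter-receptors 4 were tested. Icam1, a ligand of LFA-1 and Mac-1, was at 57.6 and 44.2 CPM in monocytes, against 28.8 and 24.4 CPM in neutrophils (0.94, adjusted p = 0.00995), a call lost in 3 of the alternative settings. Icam2, a further LFA-1 ligand, was lower in monocytes at 5.98 and 11.8 CPM, against 27.96 and 28.95 CPM in neutrophils (-1.68, adjusted p = 0.0122). B cell markers were lower in monocytes as well, and their part in the Icam2 difference was not tested. The endothelial ligands of the Itga4 integrins, Vcam1 and Madcam1, had no count in any of the 4 libraries.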
